A study of Mus musculus with 18 samples.

Results

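The genes described here encode the secreted and cell-surface components that start or block Wnt signalling: the Wnt ligands, the Frizzled (Fzd) receptors, the secreted frizzled-related proteins (Sfrp) and the Dickkopf proteins (Dkk). They were taken as all protein-coding genes whose mouse symbol was Wnt, Fzd, Sfrp or Dkk followed by a number and, in some cases, the letter a or b. The rule found 37 of the 53468 genes in the count table, namely 19 Wnt, 10 Fzd, 4 Sfrp and 4 Dkk genes. It used names alone and no measured value. *Frzb*, an Sfrp gene by sequence, is not named by the rule and is given below with the rest of the pathway. None of the 37 genes lies on the X chromosome, which carries *Fmr1*.

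A Wnt is a lipid-modified glycoprotein that binds the cysteine-rich domain of a Frizzled receptor. With the co-receptors Lrp5 and Lrp6 it stops the destruction of β-catenin, which then acts with Tcf and Lef proteins on transcription; without them, Frizzled receptors act on cell polarity and calcium. Sfrp proteins carry a Frizzled-like domain and bind Wnts outside the cell, whereas Dkk1, Dkk2 and Dkk4 bind Lrp5 and Lrp6. In the brain, Wnts pattern the embryonic neural tube and later act on synapses and on blood vessels, where Wnt7a and Wnt7b maintain the blood-brain barrier.

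Polyadenylated RNA was sequenced from the forebrain, midbrain and hindbrain of male littermates at postnatal day 25, 3 of them Fmr1CRE and 3 wild-type, which gave 18 libraries in 6 groups of 3. Fmr1CRE mice carry a single-base change, placed by CRISPR/Cas9 in a *cis*-regulatory element assigned to *Fmr1* on a C57BL/6 background, and the coding sequence of *Fmr1* is left intact. More than 1 line was established, and the line sequenced is not given in the sources used here. Each library held 22455512 to 28061185 counts on genes.

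*Fmr1* itself was present in all libraries, at 51.1 to 83.4 CPM (the counts-per-million scale of edgeR, a level within 1 gene), and the log2 fold change of Fmr1CRE over wild-type lay between -0.00 and 0.15 in the 3 regions, with an SE of 0.10 to 0.13 (adjusted p = 0.91 or more, edgeR). The change is not in the transcript, so this level does not test the labels. Markers of the telencephalon, such as *Emx1* and *Neurod6*, summed to 211 to 254 CPM in forebrain and 9.63 to 14.3 CPM in hindbrain, but also to 127 to 197 CPM in the libraries labelled midbrain. Markers of the caudal hindbrain, *Hox* genes among them, summed to 170.0 to 267 CPM in hindbrain, 8.26 to 46.9 CPM in midbrain and at most 0.298 CPM in forebrain, where *Hoxc4* was at 0. Markers of the midbrain were highest in midbrain, at 38.2 to 102 CPM against at most 9.71 CPM elsewhere. Markers of both neighbouring regions were thus present in the midbrain libraries. In both genotypes, forebrain replicate 3 did not deviate together with the midbrain and hindbrain libraries labelled as the same mouse (r between -0.17 and -0.02 across genes, against -0.03 to 0.18 in all other pairs from 1 mouse, ranges that overlap slightly). Whether these 2 libraries come from the labelled mice was not tested, so counts are also given without these 2 libraries.

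Of the 37 genes, 31 passed the filter on low counts over the 18 libraries and were tested. *Wnt1*, *Wnt3a*, *Wnt8a*, *Wnt8b*, *Dkk1* and *Dkk4* did not pass. *Wnt8b*, a marker of the embryonic cortical hem, reached 11 counts in 1 library, and the other 5 genes reached at most 5. *Wnt8a* had 3 counts in all 18 libraries together. *Wnt1* had 1 to 4 counts in every forebrain library and 0 in every hindbrain library. Differences between regions at such low counts were not tested.

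Levels of different genes were compared per length, as reads on the CPM scale divided by the effective transcript length in kilobases. *Dkk3*, a divergent member of the Dickkopf family, was the most abundant of the 37 genes, its median being 47.9 (forebrain), 40.2 (midbrain) and 14.4 (hindbrain). *Fzd3*, a Frizzled known for its part in axon guidance, had the highest median of the receptors on this per-length scale, at 12.7, 11 and 6.52. In hindbrain *Fzd1* was close, at a median of 6.26, and its range of 4.64 to 6.80 overlapped the 5.62 to 7.30 of *Fzd3*. The highest ligand was *Wnt7b*, at 8.04, 8.34 and 4.09, followed in forebrain by *Wnt4* at 4.27, *Wnt9a* at 4.15 and *Wnt7a* at 3.67. In hindbrain the order of the ligands differed: *Wnt7a* stood at 5.61, *Wnt7b* at 4.09 and *Wnt3* at 3.91, where the range of *Wnt7b* over the 6 libraries overlapped those of both others, while all libraries held more *Wnt7a* (4.65 or more) than any held *Wnt3* (4.31 or less). Summed over the 37 genes, the per-length level was 64.4 to 74.5 in hindbrain, below the 99.4 to 116 of midbrain and the 100.1 to 121 of forebrain. The families differed in this. The Dkk sum fell most, from a median of 48.2 in forebrain to 14.7 in hindbrain. *Dkk3*, at 47.9 and 14.4, made up nearly all of it and is also part of the fall over the 37 genes. Forebrain and hindbrain overlapped slightly for the Wnt sum (25.22 to 32.09 against 18.86 to 25.55) and more for the Fzd sum (21.75 to 31.73 against 20.74 to 25.8). The Sfrp sum went the other way, with medians of 5.92 and 9.33. In bulk tissue, fewer cells of a type and less RNA per cell cannot be told apart.

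**Figure D1:**
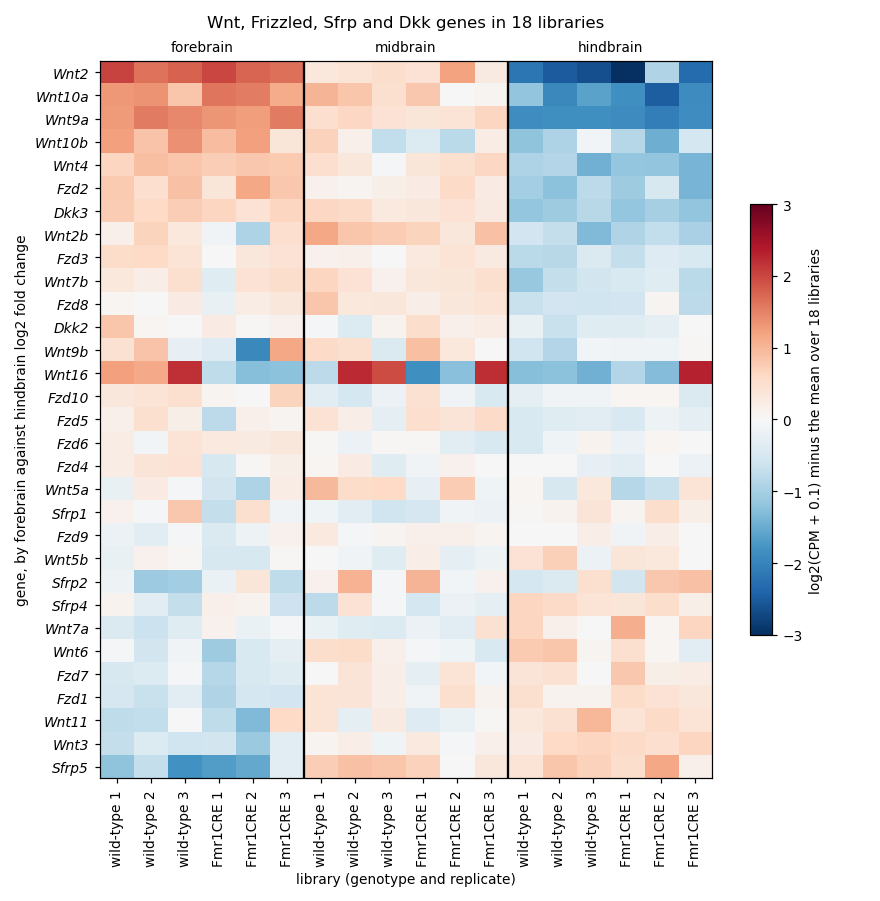
Level of each of the 31 tested genes (rows) in each of the 18 libraries (columns), as log2(CPM + 0.1) minus the gene's mean over the libraries; red is above and blue below that mean, and colours are limited at 3. *Wnt2*, *Wnt10a* and *Wnt9a* run from red in forebrain to blue in hindbrain, *Sfrp5* is lowest in forebrain, and *Wnt16* changes between libraries of 1 group.

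Forebrain and hindbrain differed in 24 of the 31 tested genes at an adjusted p under 0.05 (edgeR quasi-likelihood test, 18 libraries, Benjamini-Hochberg over 20363 genes), where 51.7% of all genes passed. Of these, 15 were higher in forebrain, as were 26.4% of all genes, and 9 in hindbrain, as were 25.3%. With a further requirement of at least 2-fold, 11 passed against 18.7% of all genes, 8 of them higher in forebrain (10.7% of all genes) and 3 in hindbrain (8.06%). The 6 libraries of each region did not overlap in 14 members, where 27.7% of all genes did not. The median log2 fold change of the 31 genes was 0.43, and that of all genes was -0.01. When libraries were scaled by total count alone, which moved the median of all genes by -0.14, 11 genes were called higher in forebrain and 10 in hindbrain.

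In both comparisons with hindbrain, the largest log2 fold changes were those of ligands. *Wnt2* (chr6:17988940-18030585, GRCm38, minus strand), which acts through β-catenin in several tissues, ranged from 3.39 to 4.45 CPM in forebrain with a median of 3.69. In midbrain it ranged from 1.24 to 2.5 CPM around a median of 1.41, and in hindbrain from 0 to 0.505 CPM around 0.113. The regions did not overlap. Forebrain exceeded hindbrain by a log2 fold change of 4.61 ± 0.43 (SE, adjusted p = 2.2e-07, edgeR). Hindbrain rested on 0 to 14 counts per library, and without the Fmr1CRE hindbrain replicate 2, which held 14, the log2 fold change was 5.5.

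*Wnt9a* (chr11:59306928-59333552, plus strand) varied little within a region. Its range was 14.2 to 17.6 CPM in forebrain, 7.70 to 9.23 CPM in midbrain and 1.34 to 1.59 CPM in hindbrain, and no library of one region reached another. The log2 fold change was 3.37 ± 0.10 between forebrain and hindbrain (adjusted p = 1.7e-12, edgeR), 2.46 ± 0.10 between midbrain and hindbrain, and 0.91 ± 0.09 between forebrain and midbrain (adjusted p = 6.6e-06, edgeR). *Wnt10a* (chr1:74791516-74804179, plus strand) followed the same order with lower levels. Its medians were 4.29, 2.67 and 0.385 CPM, and its forebrain range of 3.05 to 5.21 CPM overlapped that of midbrain, 1.63 to 3.44 CPM. The forebrain against hindbrain log2 fold change of *Wnt10a* was 3.37 ± 0.23 (adjusted p = 5.4e-09, edgeR), where hindbrain rested on 6 to 18 counts per library.

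*Wnt4* (chr4:137277489-137299726, plus strand), known for its roles in kidney and gonad, stood at 18.7 to 22.7 CPM in forebrain, 11.7 to 18.4 in midbrain and 4.35 to 6.50 in hindbrain. The 3 ranges did not overlap, and forebrain exceeded hindbrain by 1.95 ± 0.12 on the log2 scale (adjusted p = 1.3e-09, edgeR). *Wnt10b*, a low ligand at a median of 1.11 CPM in forebrain and 0.206 CPM in hindbrain, gave 2.19 ± 0.37 (adjusted p = 0.00011, edgeR). *Wnt2b* was highest in midbrain. Its median was 3.12 CPM there, 2.07 CPM in forebrain and 0.949 CPM in hindbrain, and midbrain exceeded hindbrain by 1.73 ± 0.23 (log2, adjusted p = 1.8e-05, edgeR) with no overlap. *Wnt7b* was at 29.4 and 29.8 CPM in forebrain and midbrain and at 14.6 CPM in hindbrain, a forebrain against hindbrain log2 fold change of 0.95.

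Other ligands were higher in hindbrain. *Wnt3* (chr11:103774150-103817957, plus strand), known from Purkinje cells of the cerebellum, ranged from 3.83 to 6.60 CPM in forebrain, 7.57 to 10.2 in midbrain and 9.83 to 13.1 in hindbrain. Forebrain overlapped with neither other region, and midbrain overlapped with hindbrain. The log2 fold change was -1.15 ± 0.13 between forebrain and hindbrain (adjusted p = 1.9e-06, edgeR) and -0.70 between forebrain and midbrain. *Wnt11*, a ligand of β-catenin-independent signalling, had medians of 0.359, 0.626 and 0.942 CPM and a forebrain against hindbrain log2 fold change of -1.02 ± 0.32 (adjusted p = 0.015, edgeR), with overlap; without both replicate 3 forebrain libraries it was -1.67. *Wnt6*, *Wnt7a* and *Wnt5b* were also called higher in hindbrain than in forebrain, with log2 fold changes of -0.80, -0.73 and -0.48. *Wnt5a*, the best-known β-catenin-independent ligand, and *Wnt9b* passed the test in none of the 3 region comparisons of the deposited counts.

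**Figure D2:**
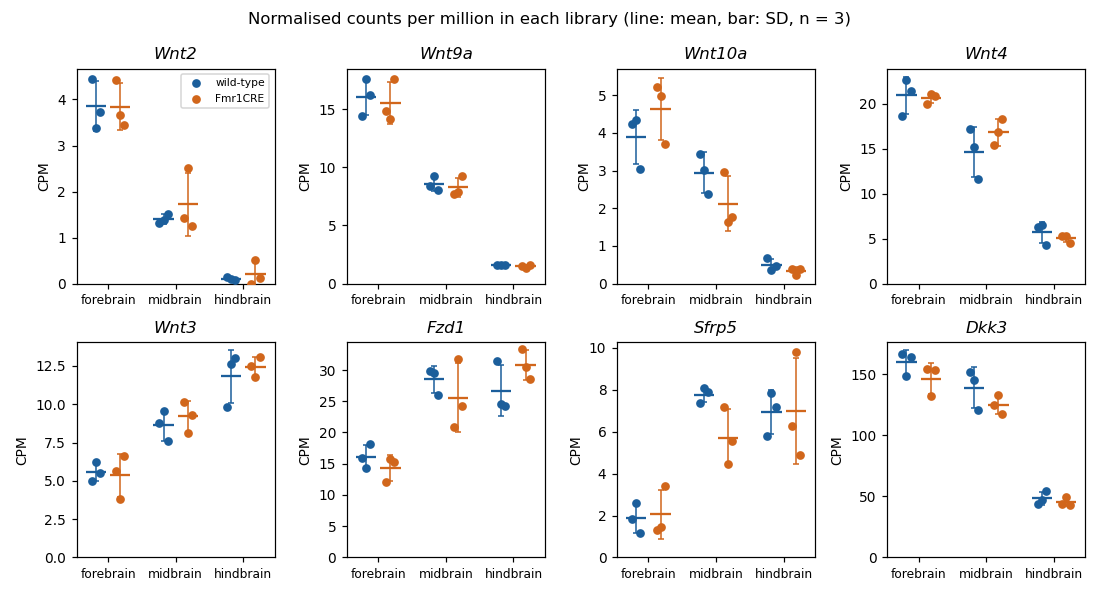
CPM of 8 genes in each library by region, with wild-type in blue and Fmr1CRE in orange; each point is a library, the line is the mean of 3 and the bar is the SD. *Wnt2*, *Wnt9a*, *Wnt10a*, *Wnt4* and *Dkk3* are lowest in hindbrain, *Wnt3*, *Fzd1* and *Sfrp5* are lowest in forebrain, and the genotypes overlap in most panels.

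Among the 10 receptors, 6 were called higher in forebrain than in hindbrain and 2 lower, where 26.4% and 25.3% of all genes were, and 3 of the 6 calls depended on the scaling of libraries. *Fzd2* had the largest difference, with 9.36 to 16.1 CPM in forebrain, 7.67 to 10.7 in midbrain and 2.70 to 5.16 in hindbrain, and a forebrain against hindbrain log2 fold change of 1.76 ± 0.17 (adjusted p = 2.4e-07, edgeR). *Fzd3* was at 95.1 to 144 CPM in forebrain and 53.9 to 72.6 CPM in hindbrain, a log2 fold change of 0.99. Neither gene overlapped between these regions. *Fzd8* was also called higher in forebrain than in hindbrain, with overlap. Its medians were 4.10 CPM in forebrain, 4.70 CPM in midbrain and 2.43 CPM in hindbrain. *Fzd1* and *Fzd7*, a closely related pair, went the other way: *Fzd1* was at 12 to 18.1 CPM in forebrain and 24.2 to 33.3 CPM in hindbrain (log2 fold change -0.92), and *Fzd7* was at 5.02 to 8.65 and 9.06 to 16.0 CPM (-0.80). *Fzd4*, the receptor for Norrin and Wnt7 in brain vessels, had medians of 15, 13.2 and 12.2 CPM with overlapping ranges and was not called in any region comparison, and neither was *Fzd9*. The calls of *Fzd5*, *Fzd6* and *Fzd10* between forebrain and hindbrain, at 0.34 to 0.48 on the log2 scale, were lost when libraries were scaled by total count alone, at adjusted p = 0.15, 0.17 and 0.10 (edgeR). With the mouse as a block, *Fzd5* and *Wnt5b* were not called (adjusted p = 0.069 and 0.057, edgeR).

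Of the 4 Sfrp genes, 0 were called higher in forebrain and 2 in hindbrain, where 26.4% and 25.3% of all genes were, and both tested Dkk genes were called higher in forebrain. *Sfrp5* (chr19:42197971-42202252, minus strand) ranged from 1.17 to 3.41 CPM in forebrain, 4.44 to 8.08 in midbrain and 4.89 to 9.81 in hindbrain. Forebrain lay below both other regions in every library, with log2 fold changes of -1.83 ± 0.26 against hindbrain (adjusted p = 1.9e-05, edgeR) and -1.76 ± 0.26 against midbrain (adjusted p = 0.00020, edgeR), while midbrain and hindbrain overlapped. *Sfrp4* was at 1.49 to 2.80 CPM in forebrain and 2.82 to 3.93 CPM in hindbrain (log2 fold change -0.66), a call that was lost without both replicate 3 forebrain libraries (adjusted p = 0.094, edgeR). *Dkk3* (chr7:112116017-112159057, minus strand) ranged from 132 to 167 CPM in forebrain, 117 to 152 in midbrain and 43.1 to 54.5 in hindbrain. Its forebrain against hindbrain log2 fold change was 1.71 ± 0.08 (adjusted p = 9.7e-11, edgeR). *Dkk2* was low, with medians of 0.912 CPM in forebrain and 0.663 CPM in hindbrain, and a log2 fold change of 0.62 that was not called when libraries were scaled by total count alone (adjusted p = 0.068, edgeR).

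Between midbrain and hindbrain, 15 of the 31 tested genes passed, where 49.1% of all genes did. Of the 15, 11 were higher in midbrain (25.1% of all genes) and 4 in hindbrain (24.0%). In 11 members the regions did not overlap, against 26.9% of all genes. At least 2-fold was reached by 8 members and 14.8% of all genes, and all 8 were higher in midbrain (8.49% of all genes, and 6.27% in the other direction): *Wnt2*, *Wnt10a*, *Wnt9a*, *Wnt2b*, *Wnt4*, *Dkk3*, *Fzd2* and *Wnt7b*. The 5 largest log2 fold changes were 3.31 ± 0.43 for *Wnt2*, 2.61 ± 0.23 for *Wnt10a*, 2.46 for *Wnt9a*, 1.73 for *Wnt2b* and 1.55 ± 0.12 for *Wnt4*. Without the Fmr1CRE hindbrain replicate 2, the value of *Wnt2* was 4.2. The 4 genes higher in hindbrain were *Sfrp4*, *Wnt7a*, *Sfrp1* and *Wnt3*, at -0.66, -0.62, -0.53 and -0.44.

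Between forebrain and midbrain, 12 of the 31 tested genes passed against 19.3% of all genes, 8 higher in forebrain (9.38% of all genes) and 4 in midbrain (9.96%). The regions did not overlap in 6 members and 10.5% of all genes. With at least 2-fold, 3 passed against 4.09% of all genes (1.82% higher in forebrain, 2.27% in midbrain). They were *Wnt2* at 1.3 ± 0.34 (adjusted p = 0.014, edgeR) and *Wnt10b* at 1.25 ± 0.34 (adjusted p = 0.018, edgeR) on the log2 scale, both higher in forebrain, and *Sfrp5*, given above. Without both replicate 3 forebrain libraries 11 genes passed, of which 4 were higher in forebrain and 7 in midbrain, since *Wnt4*, *Fzd2*, *Fzd6* and *Fzd10* were no longer called and *Wnt2b*, *Wnt11* and *Fzd9* were newly called. Scaling by total count alone gave 6 higher in each region. With the mouse as a block, *Fzd7* and *Fzd10* were lost (adjusted p = 0.055 and 0.063, edgeR) and *Wnt2b* was called (adjusted p = 0.048, edgeR).

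**Figure D3:**
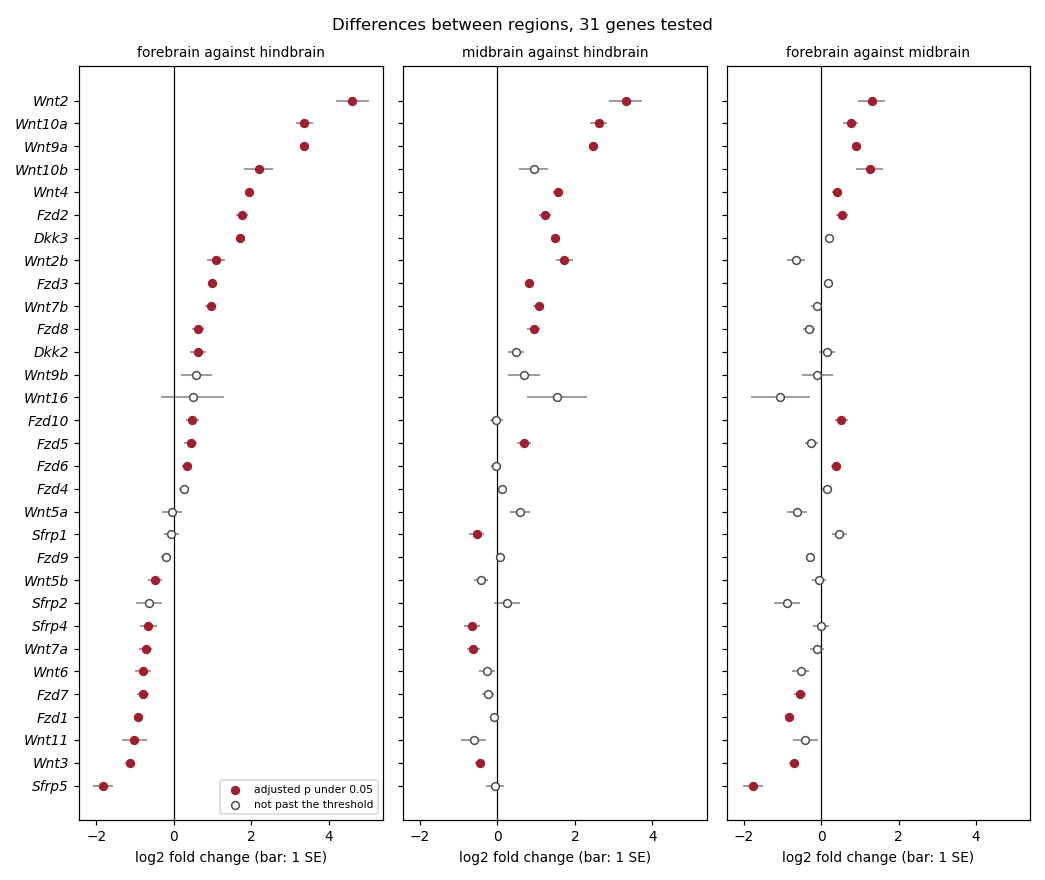
Log2 fold change of the 31 tested genes in the 3 region comparisons on a shared axis, with bars of 1 SE; filled points had an adjusted p under 0.05. *Wnt2* has the largest value in each panel, up to 4.61 in forebrain against hindbrain, and *Sfrp5* the lowest in both panels that hold forebrain.

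Markers of other cell types moved with the regions. Oligodendrocyte markers summed to 12880 to 16420 CPM in forebrain, 16980 to 20200 in midbrain and 29540 to 41480 in hindbrain, with all 6 markers present. Astrocyte markers summed to 1828 to 2782 CPM in forebrain and 3290 to 3869 CPM in hindbrain, and markers of cerebellar granule neurons to 116 to 160 and 659 to 1421 CPM. Purkinje cell markers summed to 377 to 686 CPM in forebrain, 734 to 1503 in midbrain and 1211 to 2411 in hindbrain. Choroid plexus markers ranged from 175 CPM in 1 midbrain library to 3260 CPM in 1 hindbrain library, and those of meningeal fibroblasts from 55.7 to 88.5 CPM in forebrain and 88.4 to 144 CPM in hindbrain. Microglial markers went the other way, from 237 to 343 CPM in forebrain and 176 to 227 CPM in midbrain to 111 to 137 CPM in hindbrain, without overlap. Endothelial markers overlapped between all regions, at 143 to 240 CPM. The part of these cell types in the regional differences of the Wnt genes was not tested.

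The deposited gene counts are not read numbers, and for some members this decided the value. They equalled salmon's gene abundance multiplied by the mean transcript length of the gene and rescaled to the library: recomputed in this way from the transcript estimates, at least 99.7% of 18858 genes in each library came within 1 count or 1%, whereas plain sums of reads matched 19.7% to 40.5% of genes. A read assigned to a very short transcript therefore adds many counts. When the reads were summed per gene instead (an alternative chosen after seeing the data), 24 genes differed between forebrain and hindbrain, 23 of them as with the deposited counts, where 60.7% of all genes passed. Between midbrain and hindbrain 19 passed against 58.3%, and between forebrain and midbrain 16 against 28.2%.

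Some ligands and inhibitors were called from reads alone. Between forebrain and midbrain these were *Dkk3*, *Sfrp2*, *Wnt2b*, *Wnt5a* and *Wnt6*, and between forebrain and hindbrain *Sfrp2*. Between midbrain and hindbrain they were *Wnt10b*, *Wnt11*, *Wnt5a* and *Wnt5b*. The deposited counts alone called *Fzd6* between forebrain and midbrain and *Fzd5* between forebrain and hindbrain. *Sfrp2*, a secreted inhibitor that binds Wnts as Sfrp1 does, had deposited log2 fold changes of -0.88 ± 0.33 between forebrain and midbrain and -0.64 ± 0.33 between forebrain and hindbrain, neither of them called. From reads, the values were -1.18 ± 0.14 (adjusted p = 1.9e-05, edgeR) and -0.88 ± 0.14 (adjusted p = 5.4e-05, edgeR), and forebrain overlapped with neither region. *Wnt5a* was, from reads, higher in midbrain than in forebrain (log2 fold change -0.62, adjusted p = 0.0020, edgeR) and than in hindbrain (0.39, adjusted p = 0.015, edgeR). For *Sfrp2* and *Wnt5a* the deposited counts gave values of the same sign with larger errors.

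*Wnt16*, a ligand known from bone, showed the effect of a single short transcript. The deposited counts were 63, 65 and 141 in the wild-type forebrain libraries and 16, 10 and 10 in the Fmr1CRE forebrain libraries. Salmon had assigned 12, 13 and 16 reads to the gene in the wild-type forebrain and 24, 15 and 14 in the Fmr1CRE forebrain. In midbrain the counts were 14, 140 and 138 in wild-type and 6, 11 and 141 in Fmr1CRE, and in hindbrain they were 11, 13 and 9 against 16, 11 and 142. The reads of all 18 libraries lay between 10 and 30. The 7 libraries above 60 counts are those in which 0.736 to 1.84 reads went to *Wnt16-204*, a coding transcript of 229 bases with an effective length of 14, and in the other 11 libraries it received 0. Its 2 exons are chr6:22288861-22289028 and chr6:22297767-22297827 (GRCm38, plus strand, all coding), and of its 199 words of 31 bases, 27 are in no other transcript of the annotation, all of them across the junction. The sequence from GENCODE M21 is shown because the words that set this transcript apart lie over its junction; the positions of single reads were not used here, and capitals mark the 5 bases on each side of the junction.
Wnt16-204: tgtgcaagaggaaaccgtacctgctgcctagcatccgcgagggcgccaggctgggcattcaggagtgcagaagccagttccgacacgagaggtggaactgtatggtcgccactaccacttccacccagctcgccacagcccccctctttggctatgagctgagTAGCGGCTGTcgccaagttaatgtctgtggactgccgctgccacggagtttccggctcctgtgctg

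**Figure D4:**
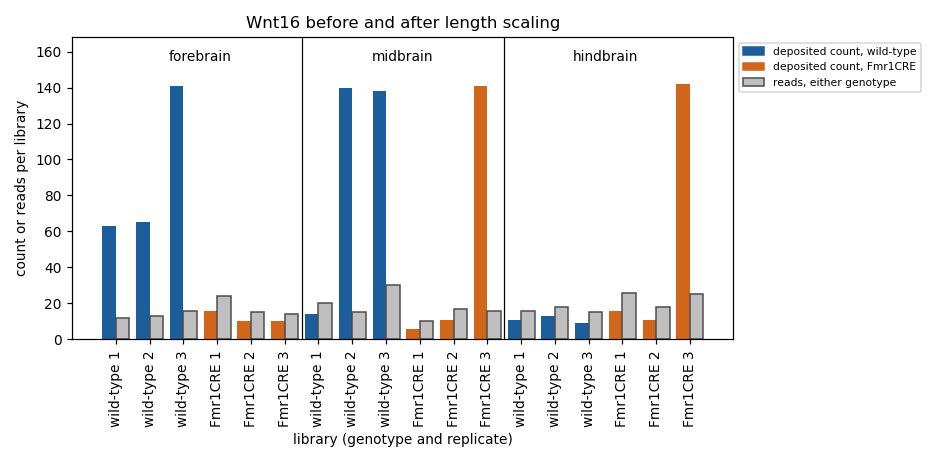
*Wnt16* in each library: coloured bars are the deposited counts and grey bars the reads salmon assigned to the gene. The coloured bars stand at 63 to 142 in 7 libraries and at 6 to 16 in the other 11, while the grey bars stay between 10 and 30.

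Genotype was compared within each region with 3 libraries per group. In edgeR, 0 of the 30 tested members passed an adjusted p of 0.05 in forebrain (0.0% of all genes), 0 of 31 in midbrain (0.00543% of all genes) and 0 of 29 in hindbrain (0.0%). At an unadjusted p under 0.05 there were 2, 2 and 1, where 5.43%, 6.17% and 5.13% of all genes passed. When the counts of the 3 regions were summed for each mouse as labelled, with the forebrain replicate 3 libraries included, 0 of 32 members passed (0.00451% of all genes), with 2 at an unadjusted p under 0.05 (3.7% of all genes) and 0 from reads. The interaction of genotype and region had 0 of 31 members past the threshold (0.0%), again with 2 at an unadjusted p under 0.05 (7.54% of all genes). DESeq2 called 0 members in midbrain, in hindbrain, in the summed counts and in the interaction, and 1 in forebrain, which was *Wnt16*.

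That call depended on the length scaling. From the deposited counts, *Wnt16* had a log2 fold change of -2.84 ± 0.41 in forebrain (unadjusted p = 0.00014, adjusted p = 0.81, edgeR; adjusted p = 4.4e-05, DESeq2), and the genotypes did not overlap. From the reads of the same libraries it was 0.42 ± 0.34 (adjusted p = 0.80, edgeR), with the opposite sign. In hindbrain the deposited counts gave 2.5 ± 1.01 (adjusted p = 0.87, edgeR); without the Fmr1CRE hindbrain replicate 3 the value was 0.27, and from reads it was 0.53.

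The other members with the smallest unadjusted p in each region had small differences. In forebrain *Wnt7a*, with CPM of 9.52, 11 and 11.6 in wild-type and 13.0, 14.5 and 16.4 in Fmr1CRE, had a log2 fold change of 0.48 ± 0.16 (unadjusted p = 0.016, adjusted p = 0.81, edgeR). The groups did not overlap in these values, whereas on the CPM scale the reads were 8.86, 11.7 and 11.9 against 11, 12.9 and 13.4, which do, with a log2 fold change of 0.24. Part of its counts came through *Wnt7a-202*, a non-coding transcript of 297 bases with an effective length of 49. *Fzd4* in forebrain was -0.38 ± 0.18 from counts and -0.36 from reads. In midbrain *Fzd3* was 0.24 ± 0.08, *Wnt6* -0.64 ± 0.24 and *Sfrp5* -0.44 ± 0.20, and in hindbrain *Wnt6* was -0.54 ± 0.33 and *Wnt9b* 0.46 ± 0.32. The adjusted p of these genes was 0.80 to 0.89 (edgeR).

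The genotypes did not overlap in 4 tested members in forebrain, 5 in midbrain and 0 in hindbrain, where 10.3%, 11.3% and 10.9% of all genes did not overlap. From reads there were 3, 4 and 3 such members, where 9.99%, 11% and 12.3% of all genes did not overlap. From reads, the log2 fold change was under 0.5 in size in 31 of 31 members tested in forebrain, 30 of 31 in midbrain and 28 of 29 in hindbrain, and the median SE was 0.21, 0.18 and 0.20. Markers of the hypothalamus differed between the groups: they summed to 48.2 to 127 CPM in the Fmr1CRE midbrain and 6.27 to 21.8 CPM in the wild-type midbrain, without overlap, and to 7.23 to 70.2 and 56.5 to 106 CPM in the forebrain. Their part in the genotype values was not tested.

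**Figure D5:**
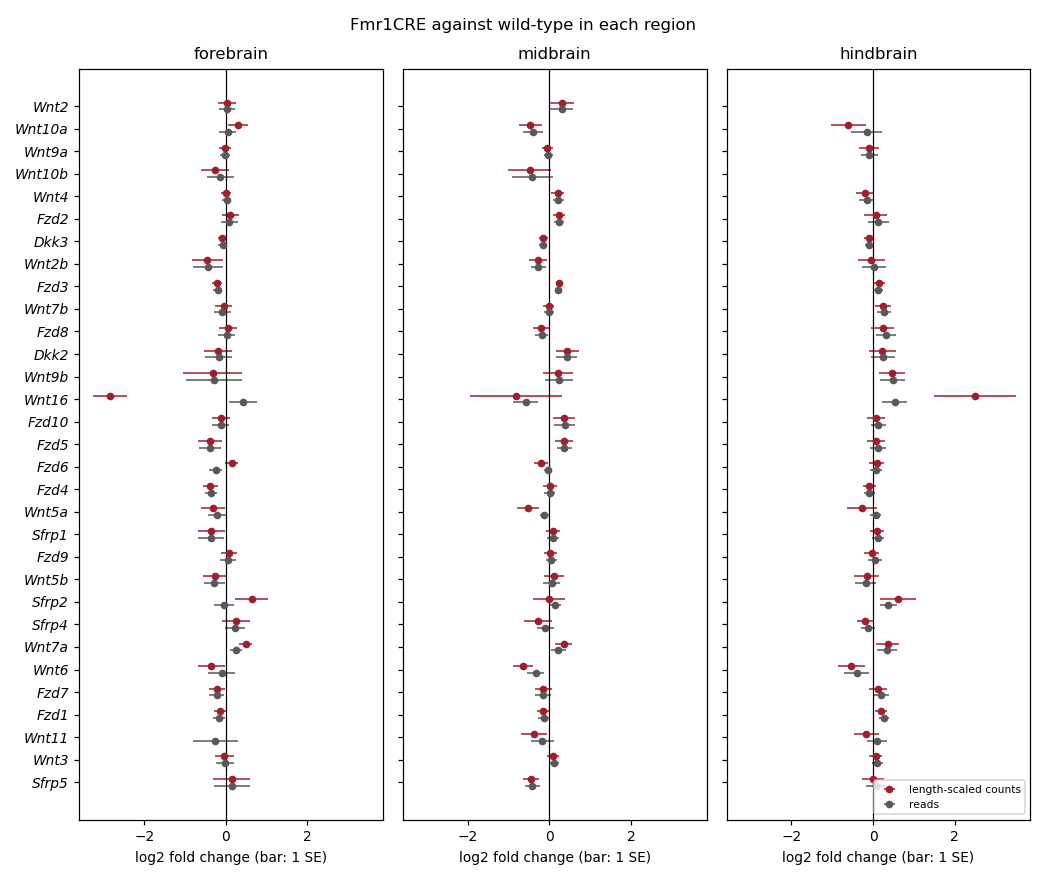
Log2 fold change of Fmr1CRE over wild-type for each tested gene in the 3 regions on a shared axis, from the deposited length-scaled counts (red) and from reads (grey), with bars of 1 SE. The red points of *Wnt16*, at -2.84 in forebrain and 2.5 in hindbrain, move to 0.42 and 0.53 in grey, and the red points of the other genes lie between -0.64 and 0.63.

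Several members are neighbours in the genome, and the tested neighbours differed by region. *Wnt6* and *Wnt10a* lie on the same strand of chromosome 1 with 6193 bases between them. *Wnt10a* was higher in forebrain than in hindbrain by 3.37 on the log2 scale and *Wnt6* was lower by -0.80. *Wnt9b* and *Wnt3* lie head to head on chromosome 11 with 24328 bases between them, and their log2 fold changes were 0.58, not called, and -1.15. The other pairs each hold a gene that was not tested: *Wnt3a* beside *Wnt9a* on chromosome 11, 16175 bases apart, and *Wnt10b* beside *Wnt1* on chromosome 15, 11706 bases apart. In both, the partner was far above the untested gene.

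Promoter windows were searched on both strands for CTTTGAA and CTTTGAT, forms of the binding site of Tcf and Lef proteins. Some components of the pathway are also its targets. Other forms of the site were not searched. Windows of 250 bases before the start site (RefSeq, GRCm38.p6) were at hand for 25 of the 37 genes, and 3 of the 25 held a match in 1 window, against 8.63% of 27025 genes. The 3 genes with a match were *Wnt5b* and *Wnt11*, both called higher in hindbrain than in forebrain, and *Dkk1*, which is barely expressed here. The windows of *Wnt2*, *Wnt9a*, *Wnt4* and *Wnt10b*, called higher in forebrain, held none. Those of *Sfrp5*, *Wnt3*, *Fzd1*, *Fzd7*, *Wnt6* and *Wnt7a*, called higher in hindbrain, also held none. The windows of *Wnt11* (chr7:98834862-98835111, plus strand) and *Wnt5b* (chr6:119449387-119449636, minus strand) are shown as those of the called genes with a match, which is in capitals; each gene has other start sites whose windows held none.
Wnt11: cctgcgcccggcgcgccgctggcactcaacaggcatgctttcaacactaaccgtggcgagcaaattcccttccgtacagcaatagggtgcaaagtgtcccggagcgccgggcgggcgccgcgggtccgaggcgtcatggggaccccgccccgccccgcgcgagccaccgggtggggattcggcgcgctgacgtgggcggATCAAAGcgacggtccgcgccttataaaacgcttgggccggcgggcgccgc
Wnt5b: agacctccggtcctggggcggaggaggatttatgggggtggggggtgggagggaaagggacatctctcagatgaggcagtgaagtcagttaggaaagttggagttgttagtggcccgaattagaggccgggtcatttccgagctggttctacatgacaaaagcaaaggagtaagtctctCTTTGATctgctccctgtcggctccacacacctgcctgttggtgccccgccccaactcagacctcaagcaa

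The rest of the pathway was followed in 8 lists of genes, of which the feedback targets share *Lgr5* with the R-spondin list and *Lef1* with the nuclear factors. Between forebrain and hindbrain, 26.4% of all genes were called higher in forebrain and 25.3% lower, with a median log2 fold change of -0.01, and the counts of each list stand against these shares. Nuclear factors were called higher in forebrain in 8 of 11 tested genes and lower in 0, with a median of 0.63. *Tcf7l2*, a transcription factor of the pathway abundant in thalamus, was at a median of 61.5 CPM in midbrain against 23.4 CPM in forebrain and 4.13 CPM in hindbrain, and its midbrain against hindbrain log2 fold change was 3.80 ± 0.29 (adjusted p = 5.3e-08, edgeR). *Lef1* followed at 5.16, 7.24 and 1.82 CPM. The cytoplasmic relay and destruction complex had 10 of 16 higher in forebrain and 1 lower, and *Apc*, a scaffold of the complex, was highest in forebrain at a median of 1321 CPM against 170 CPM in hindbrain (log2 fold change 2.75 from counts and 2.32 from reads). Planar cell polarity genes had 5 of 7 higher and 0 lower, led by *Celsr1*, an atypical cadherin, at 3.38 ± 0.34.

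The extracellular and membrane lists held calls in both directions, read against the same 26.4% and 25.3% of all genes. Other secreted inhibitors and Dkk receptors had 6 of 10 tested genes higher in forebrain and 2 lower. Among them *Dkkl1*, a relative of *Dkk3*, fell from a median of 10.4 CPM in forebrain to 3.78 in midbrain and 0.763 in hindbrain, a forebrain against hindbrain log2 fold change of 3.91 ± 0.19 (adjusted p = 1.2e-10, edgeR), and *Frzb* was higher in forebrain by 1.47. *Wif1*, which binds Wnts directly, had medians of 1.01, 2.15 and 3.83 CPM, a log2 fold change of -2.04 ± 0.24 (adjusted p = 3.7e-06, edgeR). R-spondins, their receptors and ligases had 4 of 8 higher, *Rspo1* at 1.86 and *Rspo2* at 0.99 among them, and 1 lower, the receptor *Lgr5* at -1.57. Co-receptors had 3 of 8 higher and 1 lower. Genes for Wnt lipidation and secretion, the one exception, had 0 of 6 higher and 3 lower, with a median of -0.23.

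Feedback targets, genes that Wnt signalling is known to induce, had 6 of 11 higher in forebrain and 2 lower between forebrain and hindbrain, where 26.4% and 25.3% of all genes were, with a median log2 fold change of 0.46 against -0.01 over all genes. *Sp5*, a transcription factor of this group, was lowest in forebrain, with medians of 0.366, 1.22 and 2.38 CPM and a log2 fold change of -2.55 ± 0.25 (adjusted p = 3.8e-07, edgeR), while *Lef1* was higher in forebrain by 1.41. For genotype, 0 genes of any of the 8 lists passed the test in forebrain, midbrain or hindbrain (edgeR).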

How the data were processed

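Single-end reads of 50 bases were processed by the authors with bcbio_nextgen, and transcripts were quantified with Salmon 0.14.0 (mm10, per the labels). Libraries were sequenced in pools whose members are not given in the sources used here. The deposited gene values are estimated counts, scaled by transcript length and rounded; the authors also deposited expected counts, TPM and effective lengths for each transcript. The deposited log2 values were not used, as the copy used here is incomplete. Of the 18 transcript sets, 2 are attached to the library whose counts they give, so sets were tied to libraries by recomputing the counts (tolerance 1 count or 1%).

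Symbols and positions are of GENCODE M21 (GRCm38), which named 53431 of 53468 genes; the 37 without a symbol held 0.0151% of counts. Counts were tested with edgeR 4.0.16 in R 4.3.3 (TMM, default filter on low counts, quasi-likelihood test, Benjamini-Hochberg adjustment, threshold 0.05), with regions compared in 1 fit of 18 libraries and genotypes in 6 libraries per region, in sums per mouse, and in an interaction. DESeq2 1.42.0, other scalings and filters, a mouse block, left-out libraries and reads without length scaling were alternatives. Samples of 1 mouse entered these fits as independent except under the block. The labels give each mouse's 3 regions, which pairs them; deviations of the same mouse correlated between -0.17 and 0.18. The scripts were checked on simulated counts.

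The members and lists were chosen with earlier results of these data known; 3 marker genes are not reported here and are left out of their lists' sums. Full values were given for the 5 highest and 5 lowest members called with at least 2-fold per region comparison, for the 3 members with the smallest unadjusted p per genotype comparison, and for at most 3 genes per pathway list, chosen by the largest fold change between any 2 regions; other genes were named after their values were seen.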

Additional observations from a re-analysis of the deposited data

How the results depend on the processing

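The number of members called in the 3 region comparisons stayed within 1.5 times under 8 alternatives of scaling, filter, tool, mouse block, length scaling and left-out replicate 3 forebrain libraries. It moved when genotypes were fitted alone, with 9 of the 18 libraries: 7 members were called between forebrain and midbrain in wild-type libraries only, and in Fmr1CRE libraries only 2 between forebrain and midbrain, 13 between forebrain and hindbrain and 9 between midbrain and hindbrain. With the replicate block (mouse), 11, 22 and 16 members were called between forebrain and midbrain, forebrain and hindbrain, and midbrain and hindbrain, against 12, 24 and 15; the last gained *Wnt5a* (adjusted p = 0.049, edgeR). Between genotypes, same-numbered mice correlated between -0.12 and 0.07. Libraries labelled as 1 mouse also spanned 0, from -0.17 to 0.18, so these values cannot decide whether the numbers pair mice. With the replicate number as a block there were 0 calls between genotypes in each region. Leaving out 1 library at a time gave 8 to 14, 20 to 25 and 14 to 18 members in the 3 region comparisons, in the same order, and 0 in every genotype comparison and the interaction. *Fzd5* lost its forebrain against hindbrain call in 10 of these 18 fits and *Wnt5b* in 8, and *Fzd6*, *Fzd10*, *Fzd2* and *Fzd7* lost their forebrain against midbrain calls in 9, 8, 7 and 5. *Fzd6* and *Fzd10* also lost their forebrain against hindbrain calls in 3 fits each, and *Sfrp1* its midbrain against hindbrain call in 5. Without the wild-type forebrain replicate 1, *Dkk2* was not called between forebrain and hindbrain (adjusted p = 0.065, edgeR), and without the wild-type forebrain replicate 2, *Wnt4* was not called between forebrain and midbrain (adjusted p = 0.051, edgeR). DESeq2 called 1 member between genotypes in forebrain. The direction of 1 named value reversed, *Wnt16* between genotypes in forebrain, at 0.42 from reads. Low counts limit *Wnt2* and *Wnt10a* in hindbrain, *Wnt10b*, *Wnt11* and the 6 untested members.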

Other observations

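Within wild-type libraries alone, the deposited counts called *Wnt16* higher in forebrain than in hindbrain (log2 fold change 3.17, adjusted p = 0.0050, edgeR) and higher in midbrain than in hindbrain (3.19, adjusted p = 0.0058, edgeR). The reads that salmon assigned to the gene in these 9 libraries were 12, 13 and 16 in forebrain, 20, 15 and 30 in midbrain and 16, 18 and 15 in hindbrain, so both regions overlapped with hindbrain. The 2 calls rest on the 5 wild-type libraries of forebrain and midbrain with reads on the short transcript described above.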
